A study of Homo sapiens with 12 samples.

Results

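Matrix metalloproteinases are zinc-dependent proteases that cut the proteins of the extracellular matrix, and 10 of their genes are described here: MMP1, MMP2, MMP3, MMP7, MMP9, MMP10, MMP12, MMP13, MMP14 and MMP16. They were taken as a family, by name, out of 20090 protein-coding genes. Peak pairs were counted where their midpoint fell in a gene body on hg19 or within 20 kb of it. The 10 windows cover 840.6 kb in 7 separate stretches, which is 0.0277% of the 23 chromosomes used. MMP10, MMP1, MMP3 and MMP12 lie side by side on chromosome 11 and share 1 stretch of 144.5 kb, so a peak pair there can count for more than one of them.

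The data are ChIP-exo lists from DCIS.COM, an established human breast cell line that models ductal carcinoma in situ. ChIP-exo trims immunoprecipitated DNA with an exonuclease, and a peak pair is a left and a right border facing each other. The antibodies were against STAT3 phosphorylated on a serine (pSTAT3), a signal-activated transcription factor, and against BCL9, a coactivator best known as a partner of beta-catenin, with 1 library for the chromatin organiser CTCF. BCL9-knockdown cells carried a lentiviral short hairpin RNA in the pLKO.1 vector against BCL9, and gave 2 pSTAT3 and 2 BCL9 libraries. Control (NS) cells carried the same vector with a non-silencing hairpin, and gave 3 pSTAT3 libraries, 3 BCL9 libraries and the CTCF library. Both kinds of cell were transduced cultures grown in DMEM/F12 with horse serum, and the labels call the replicates biological. Only 1 hairpin was used, and loss of the BCL9 protein cannot be read from peak lists. RNA was not measured in these libraries, so nothing below is a level of an MMP transcript.

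The lists differ widely in length, which touches every comparison. They held 415624 and 493174 peak pairs for pSTAT3 in knockdown cells, against 118933, 98665 and 374089 in control cells. For BCL9 they held 95586 and 336493 in knockdown cells, against 28690, 24728 and 148755 in control cells, and the CTCF list held 457119. The number of reads is unknown, and a list shows only pairs above its own minimum, so a site with no listed pair may still hold tags. As a check of the cell type, 5 of 6 basal epithelial marker genes (KRT5, KRT14, KRT17, TP63, LAMB3, ITGB4) had a region shared by pSTAT3 and BCL9 in knockdown cells and 4 of 6 in control cells, against 3 of 10 and 2 of 10 markers of other cell types. Over all genes the shares were 30.0% in knockdown cells and 19.4% in control cells, close to those of the other cell types.

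The family divides by what its members cut. MMP1 and MMP13 are collagenases, MMP3 and MMP10 are stromelysins, MMP7 is matrilysin and MMP12 is macrophage elastase. MMP2 and MMP9 are gelatinases, which degrade basement membrane collagen, and MMP14 and MMP16 are membrane-anchored enzymes, of which MMP14 is the classical activator of MMP2. In many cell types the stromelysin and collagenase genes respond to growth factors and phorbol esters through AP-1, the dimer of FOS and JUN proteins. STAT3 is switched on by cytokines such as interleukin-6.

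The pSTAT3 and BCL9 peak pairs at these loci are described by the stretches of DNA where they recurred. A region is a stretch covered by the 100 bp windows round peak pairs of at least 2 libraries of the same antibody and condition, and a co-occurring region is a pSTAT3 region that overlaps a BCL9 region. There were 10 co-occurring regions in knockdown cells and 4 in control cells, and all 4 control ones lay within the 10. As chosen, each of the 10 had a pSTAT3 and a BCL9 pair in both knockdown libraries. Their contrast with control cells below is therefore a description only. None lay within 1 kb of the member's canonical start. The 10 span 3974 bp, 0.473% of the windows.

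Distances below run from the canonical start in the direction of transcription, so negative ones are upstream. Sites follow in 2 sets, each site as 100 bp of the plus strand of GRCh37 round the median midpoint of its peak pairs. Not every co-occurring site is printed. The first set was picked for holding the AP-1 string TGACTCA, searched on both strands and set in capitals. Any other strings found are in capitals too, and those that occur below are the STAT3 string TTCNNNGAA, the C/EBP string TTGCNNAA and the RUNX string TGTGGT, also on both strands. The sites at MMP10 -3205, MMP3 -5817, MMP2 -41287 and MMP9 -15204 bp are co-occurring, and MMP3 -7890 bp, which was added after its values were seen, is a pSTAT3 region only.
MMP10 -3205 bp, chr11:102654547-102654646: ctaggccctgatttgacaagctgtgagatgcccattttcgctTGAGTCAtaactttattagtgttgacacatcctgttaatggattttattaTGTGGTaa
MMP3 -7890 bp, chr11:102722237-102722336: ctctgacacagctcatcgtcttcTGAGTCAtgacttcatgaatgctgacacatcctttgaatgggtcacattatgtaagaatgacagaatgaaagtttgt
MMP3 -5817 bp, chr11:102720156-102720255: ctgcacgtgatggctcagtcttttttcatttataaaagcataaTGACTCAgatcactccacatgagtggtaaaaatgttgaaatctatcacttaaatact
MMP2 -41287 bp, chr16:55471717-55471816: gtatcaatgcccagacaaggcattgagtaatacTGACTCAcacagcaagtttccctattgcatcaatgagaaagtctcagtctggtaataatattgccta
MMP9 -15204 bp, chr20:44622234-44622333: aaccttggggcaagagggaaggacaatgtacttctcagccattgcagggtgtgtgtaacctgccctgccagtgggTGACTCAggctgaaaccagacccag

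The MMP10 -3205 bp and MMP3 -7890 bp sites resemble each other beyond the AP-1 string. Read from the first base of the string, with the strings in the same orientation, 46 of 60 bases (76.7%) were identical without gaps. The other 9 pairs among these 5 AP-1 strings shared 28.3% to 38.3%, of which the 7 bases of the string are common by construction. MMP10 and MMP3 are closely related genes with MMP1 between them, and both sites lie upstream of their gene on the same strand. The reason for the likeness was not tested.

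The second set holds no AP-1 string in its 100 bp. MMP2 20957 bp carried the strongest BCL9 pair at any member in 4 of the 5 BCL9 libraries, MMP2 -8495 bp a STAT3 string and MMP14 2698 bp none of these strings. MMP10 20079 bp was a strong pSTAT3 region with little BCL9. All but MMP14 2698 bp were added after their values were seen.
MMP2 20957 bp, chr16:55533976-55534075: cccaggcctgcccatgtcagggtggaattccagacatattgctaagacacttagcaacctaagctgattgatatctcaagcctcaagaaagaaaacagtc
MMP2 -8495 bp, chr16:55504618-55504717: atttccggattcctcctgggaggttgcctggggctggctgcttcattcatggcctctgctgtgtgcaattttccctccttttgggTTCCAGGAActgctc
MMP14 2698 bp, chr14:23308460-23308559: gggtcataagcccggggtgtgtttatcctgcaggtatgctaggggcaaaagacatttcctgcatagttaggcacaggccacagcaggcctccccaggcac
MMP10 20079 bp, chr11:102631267-102631366: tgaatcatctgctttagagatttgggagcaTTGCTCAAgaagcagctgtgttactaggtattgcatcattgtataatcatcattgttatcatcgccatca

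For 3 members a promoter was at hand in RefSeq (GRCh38.p14), shown here as the 250 bases before the start on the gene's own strand, with the strings found in capitals. The MMP10 promoter has a match to the core CCACNAG searched for CTCF, at -18 bp. The MMP14 promoter has a RUNX string at -177 bp and the MMP7 promoter an AP-1 string at -67 bp. Of 35116 promoters of this length, 4.2% held the AP-1 string, 11.59% the CTCF core and 10.98% the RUNX string.
MMP10 promoter, chr11:102780629-102780878: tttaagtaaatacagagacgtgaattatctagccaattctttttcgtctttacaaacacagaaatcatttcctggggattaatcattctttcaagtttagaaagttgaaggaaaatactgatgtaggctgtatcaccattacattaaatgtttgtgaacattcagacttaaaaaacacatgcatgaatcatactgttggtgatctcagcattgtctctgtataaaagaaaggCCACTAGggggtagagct
MMP14 promoter, chr14:22836335-22836584: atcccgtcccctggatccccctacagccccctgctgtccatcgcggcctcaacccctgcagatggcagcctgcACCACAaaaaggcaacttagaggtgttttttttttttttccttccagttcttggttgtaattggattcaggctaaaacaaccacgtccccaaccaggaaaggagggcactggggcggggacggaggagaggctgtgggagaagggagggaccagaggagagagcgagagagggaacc
MMP7 promoter, chr11:102530748-102530997: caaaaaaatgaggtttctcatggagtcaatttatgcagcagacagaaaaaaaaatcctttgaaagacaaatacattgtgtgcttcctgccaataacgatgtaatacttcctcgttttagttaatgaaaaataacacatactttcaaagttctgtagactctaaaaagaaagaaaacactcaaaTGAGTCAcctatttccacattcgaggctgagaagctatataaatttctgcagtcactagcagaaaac

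In the cluster on chromosome 11, the stromelysin gene MMP10 had the highest mean pSTAT3 density of the family in both conditions. Density here is the number of peak pairs per base of the window, divided by the same over the genome, so 1 is the average, and the median gene had 1.04 for pSTAT3 in knockdown cells and 0.912 in control cells. MMP10 stood at 5.68 and 6.39 in knockdown cells, against 7.13, 4.30 and 5.67 in control cells, with 39 and 52 listed pSTAT3 pairs against 14, 7 and 35. The 2 knockdown values lay inside the control range. Its mean put MMP10 at percentile 98.66 of all genes in knockdown cells and 96.79 in control cells. MMP1, whose window overlaps that of MMP10, stood at 3.75 and 4.17 in knockdown cells, against 3.14, 1.89 and 3.83 in control cells. For MMP3 the pSTAT3 densities were 3.21 and 2.19 in knockdown cells, against 8.01, 1.93 and 2.72 in control cells, and for MMP12, which shares most of these pairs, 3.64 and 2.36 against 8.31, 1.77 and 2.33. In both, control replicate 1 stood far above the other libraries.

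The site at MMP10 -3205 bp (chr11:102654187-102654941), in an exon of the transcribed pseudogene WTAPP1, was the most fully shared of the cluster. Its strongest pSTAT3 pair had 30 and 53 tags in knockdown cells, against 29, 8 and 33 tags in control cells. Its strongest BCL9 pair had 11 and 14 tags in knockdown cells, against 7, 10 and 16 in control cells. Tags are the deposited signal divided by the step of its library, and they compare pairs within a list, not across lists. All 10 pSTAT3 and BCL9 libraries thus listed a pair here, and by rank the groups overlapped for both antibodies. Within their lists the pSTAT3 pairs ranked in the top 3.14% and 0.684% in knockdown cells, against 1.35%, 29.3% and 1.93% in control cells. The BCL9 pairs ranked in the top 20.1% and 5.47% in knockdown cells, against 26.3%, 58.3% and 7.02% in control cells. The median midpoints of the pSTAT3 and the BCL9 pairs lay 8 bp apart.

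Another pSTAT3 site of MMP10 lay on its other side, past the gene, with hardly any BCL9. By rank within the list it was the stronger of both sites in 3 of 5 pSTAT3 libraries, tied in knockdown replicate 1 and the weaker in control replicate 1. At MMP10 20079 bp (chr11:102631070-102631490), in a WTAPP1 intron, the strongest pSTAT3 pair had 30 and 70 tags in knockdown cells, against 20, 16 and 41 in control cells. It ranked in the top 5.72% or better in all 5 lists. BCL9 pairs were listed in 1 of 2 knockdown libraries, with 10 tags, and in 1 of 3 control libraries, with 13 tags, so no BCL9 region formed in either condition.

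Upstream of MMP3, 2 neighbouring AP-1 sites were occupied by pSTAT3 in all 5 libraries. At MMP3 -5817 bp (chr11:102719998-102720316) the strongest pSTAT3 pair had 15 and 31 tags in knockdown cells, against 14, 12 and 24 in control cells. BCL9 pairs were listed there in both knockdown libraries, with 7 and 8 tags, and in none of the 3 control libraries. The BCL9 pairs were weak, in the top 80.2% and 19.6% of their lists. At MMP3 -7890 bp (chr11:102722077-102722384) the pSTAT3 pairs had 36 and 21 tags in knockdown cells, against 11, 6 and 13 in control cells. Within their lists these pairs ranked in the top 2.02% and 6.47% in knockdown cells, against 15.6%, 77.4% and 12.3% in control cells. BCL9 was listed in 1 knockdown library with 6 tags and in 1 control library with 22 tags.

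The gelatinase gene MMP2 carried the best-ranked BCL9 pair of the family in all 5 BCL9 libraries, at 20957 bp in 4 of them and at -41287 bp in control replicate 1. By BCL9 density it led in control cells (mean 6.09), while in knockdown cells its mean of 2.57 was below those of MMP10 (2.89), MMP9 (2.85) and MMP14 (2.72). At MMP2 20957 bp (chr16:55533801-55534333), in an intron, the strongest BCL9 pair had 26 and 25 tags in knockdown cells, against 7, 37 and 48 tags in control cells. The pairs of 37 and 48 tags ranked 238.5 and 572.5 in lists of 24728 and 148755. Within their lists these BCL9 pairs ranked in the top 2.61% and 1.19% in knockdown cells, against 26.3%, 0.964% and 0.385% in control cells, and the groups overlapped. The strongest pSTAT3 pair there had 19 and 42 tags in knockdown cells, against 12, 22 and 34 in control cells. At MMP2 -41287 bp (chr16:55471580-55472066), which is in an intron of the longer MMP2 transcripts and of the antisense gene MMP2-AS1, pSTAT3 had 58 and 29 tags in knockdown cells, against 16, 15 and 41 in control cells. BCL9 had 13 and 18 tags in knockdown cells, against 13, 16 and 23 in control cells. Like MMP10 -3205 bp, both MMP2 sites had a pair in all 10 pSTAT3 and BCL9 libraries. MMP2 -8495 bp (chr16:55504512-55504719) had 24 and 14 BCL9 tags in knockdown cells, against 0, 11 and 17 in control cells, and 6 and 18 pSTAT3 tags against 6, 0 and 8, where 0 means that no pair was listed. It was a BCL9 region in both conditions and a pSTAT3 region, and so co-occurring, in knockdown cells but not in control cells. The 2 control pSTAT3 libraries with a pair in the site had 100 bp windows that did not touch, so no control region formed.

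MMP9, the other gelatinase, had co-occurring regions in knockdown cells and none in control cells. These sites were chosen for pairs in both knockdown libraries, so that part of the contrast was set in advance. At MMP9 -15204 bp (chr20:44622122-44622565) BCL9 had 18 and 19 tags in knockdown cells, in the top 6.61% and 2.55% of their lists, and no listed pair in the 3 control libraries. The pSTAT3 pairs had 6 and 13 tags in knockdown cells, against 0, 9 and 10 in control cells. At MMP9 -3917 bp (chr20:44633512-44633748) BCL9 had 12 and 8 tags in knockdown cells and again no listed pair in control cells. The MMP9 region nearest the gene start, at -510 bp with an AP-1 string, was a pSTAT3 region only, with 6 and 3 tags in knockdown cells, against 0, 10 and 12 in control cells.

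The membrane-type genes differed from one another. MMP14 had 2 intronic sites close to its start. At MMP14 2698 bp (chr14:23308359-23308625) pSTAT3 had 10 and 10 tags in knockdown cells, against 4, 0 and 8 in control cells, and BCL9 had 11 and 11 tags in knockdown cells, against 6, 0 and 9 in control cells. At MMP14 2226 bp (chr14:23307857-23308183) BCL9 had 12 and 11 tags in knockdown cells and was not listed in control cells, beside weak pSTAT3 pairs of 4 and 5 tags against 0, 0 and 5. MMP16, by far the longest member, was not dense in either antibody: pSTAT3 stood at 1.28 and 1.10 in knockdown cells, against 0.684, 0.916 and 0.797 in control cells. Its 11 pSTAT3 regions in knockdown cells and 4 in control cells were all intronic. The region at MMP16 89671 bp (chr8:89249843-89250239) co-occurred with BCL9 in knockdown cells, with 27 and 41 pSTAT3 tags against 7, 0 and 11 in control cells, and 9 and 5 BCL9 tags against no listed pair. The BCL9 pairs were weak, in the top 34.8% and 77.4% of their lists, and 5 tags was the minimum of its list. The pSTAT3 pairs ranked in the top 4.01% and 1.41% in knockdown cells, against 33.3% and 15.6% in control replicates 1 and 3.

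In pSTAT3, MMP13 and MMP7 stood near or below the genome average. BCL9 density reached 2.44 at MMP7 in control replicate 2 and 2.01 at MMP13 in control replicate 1, each on 1 listed pair. MMP13 had no region of either antibody in either condition, with pSTAT3 densities of 0.554 and 1.05 in knockdown cells, against 0, 1.17 and 1.08 in control cells. MMP7 had a single pSTAT3 region, in an intron at 2528 bp, in knockdown cells and none in control cells, with 5 and 4 tags. Its promoter holds an AP-1 string, printed above, and within 250 bases upstream of the start 1 of the 10 pSTAT3 and BCL9 libraries listed a pair, of 4 tags.

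**Figure D1:**
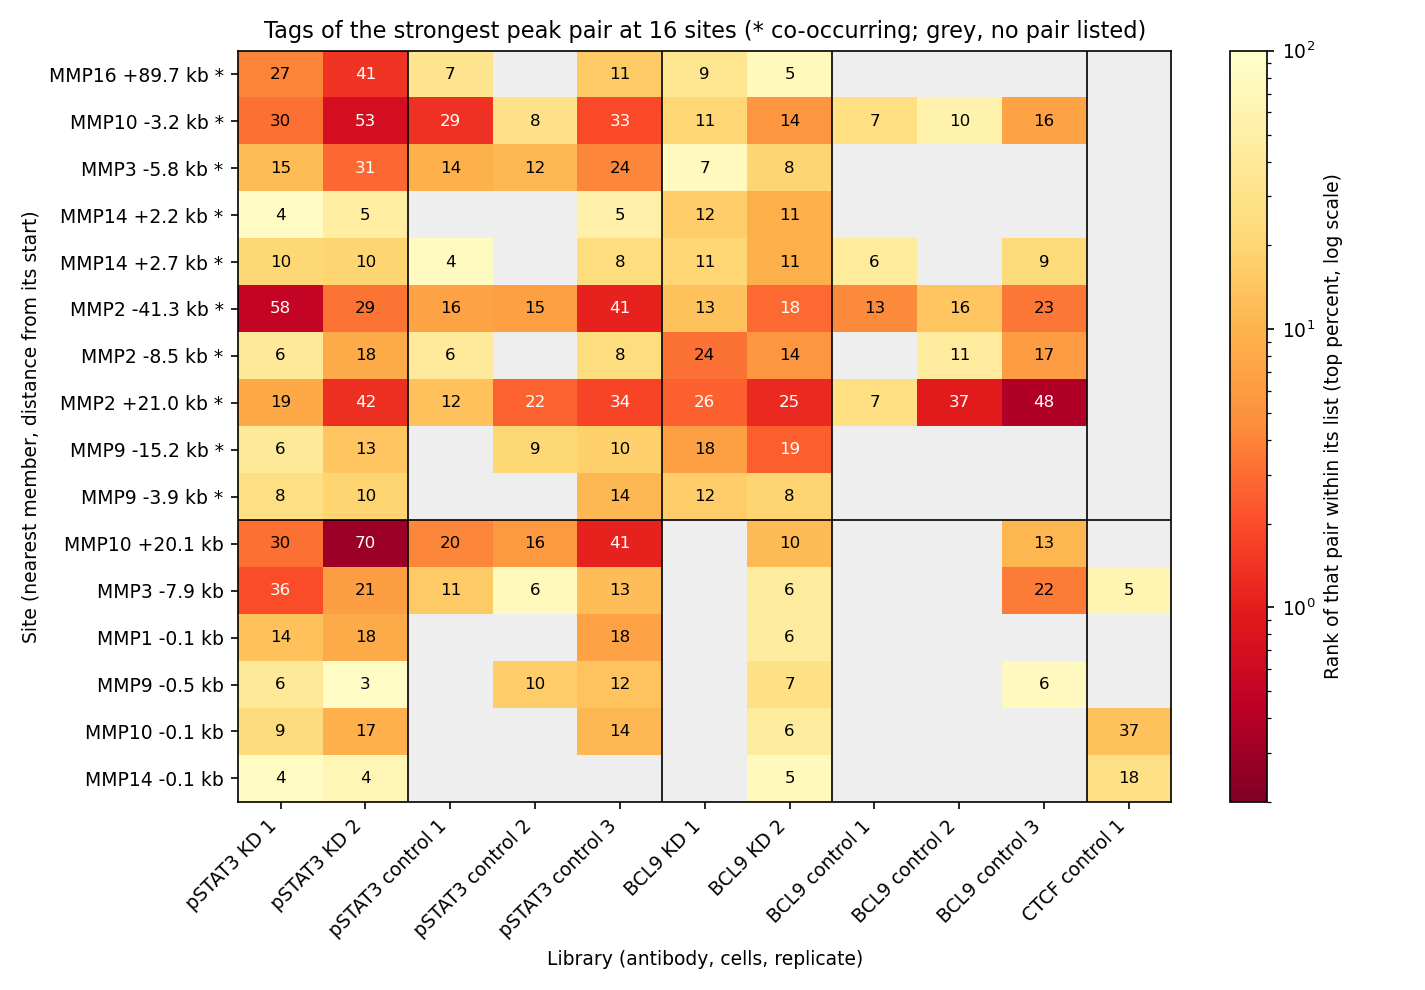
Tags of the strongest peak pair (number in each cell) at 16 sites, 10 co-occurring (above the line, starred) and 6 others (below it), in each of the 11 libraries, with colour for the rank of that pair within its list as a top percent on a log scale. The rows of MMP10 -3205 bp, MMP2 -41287 bp and MMP2 20957 bp (in kb on the axis) are filled in all 10 pSTAT3 and BCL9 columns. The CTCF column is empty at all 10 co-occurring sites, which make up only 0.473% of the windows.

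Counted by gene, 8 of 10 members had a co-occurring region in knockdown cells and 4 of 10 in control cells. Over all 20090 genes it was 30.0% in knockdown cells and 19.4% in control cells. Genes were not matched for window length, and the windows of MMP16 (336.0 kb) and MMP2 (157.0 kb) were the longest of the members. The 4 in control cells were MMP1, MMP2, MMP10 and MMP14, and knockdown cells added MMP3, MMP9, MMP12 and MMP16. MMP1 and MMP10 share a single region, as do MMP3 and MMP12, so the members are not independent. The difference between the conditions went with list length. With the strongest 24728 pairs of every list the count was 3 of 10 in knockdown cells and 3 of 10 in control cells, the same genes MMP1, MMP2 and MMP10 in both, against 6.10% and 8.76% of all genes. Without control BCL9 replicate 3 the control count was 1 of 10, MMP2.

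Most BCL9 regions at these loci lay on pSTAT3 regions, while most pSTAT3 regions had no BCL9. In knockdown cells 10 of 11 BCL9 regions co-occurred (90.9%), against 71.3% over the genome, and 10 of 46 pSTAT3 regions (21.7%), against 23.2%. In control cells it was 5 of 7 BCL9 regions (71.4%), against 74.6%, and 4 of 20 pSTAT3 regions (20%), against 23.1%. Of the 20 control pSTAT3 regions, 15 overlapped one of the 46 in knockdown cells, and all 7 control BCL9 regions overlapped one of the 11. This overlap between conditions was not counted over all regions, so it does not set the members apart.

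The 10 sites were chosen because pairs of both antibodies recurred there, so the share of pairs they held is a description only. They held 23 of 34 and 38 of 159 BCL9 pairs in knockdown cells (67.7% and 23.9%), against 7 of 11, 12 of 14 and 23 of 70 in control cells (63.6%, 85.7% and 32.9%). The longest BCL9 lists gave the lowest shares. For pSTAT3 the shares were 23.5% and 27.0% in knockdown cells, against 32.3%, 25.5% and 20.8% in control cells. None of the 193 CTCF pairs at the family lay in them. The sites make up only 0.473% of the windows, so few pairs would be met there in any case. The share of all co-occurring regions with a CTCF pair was not counted.

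**Figure D2:**
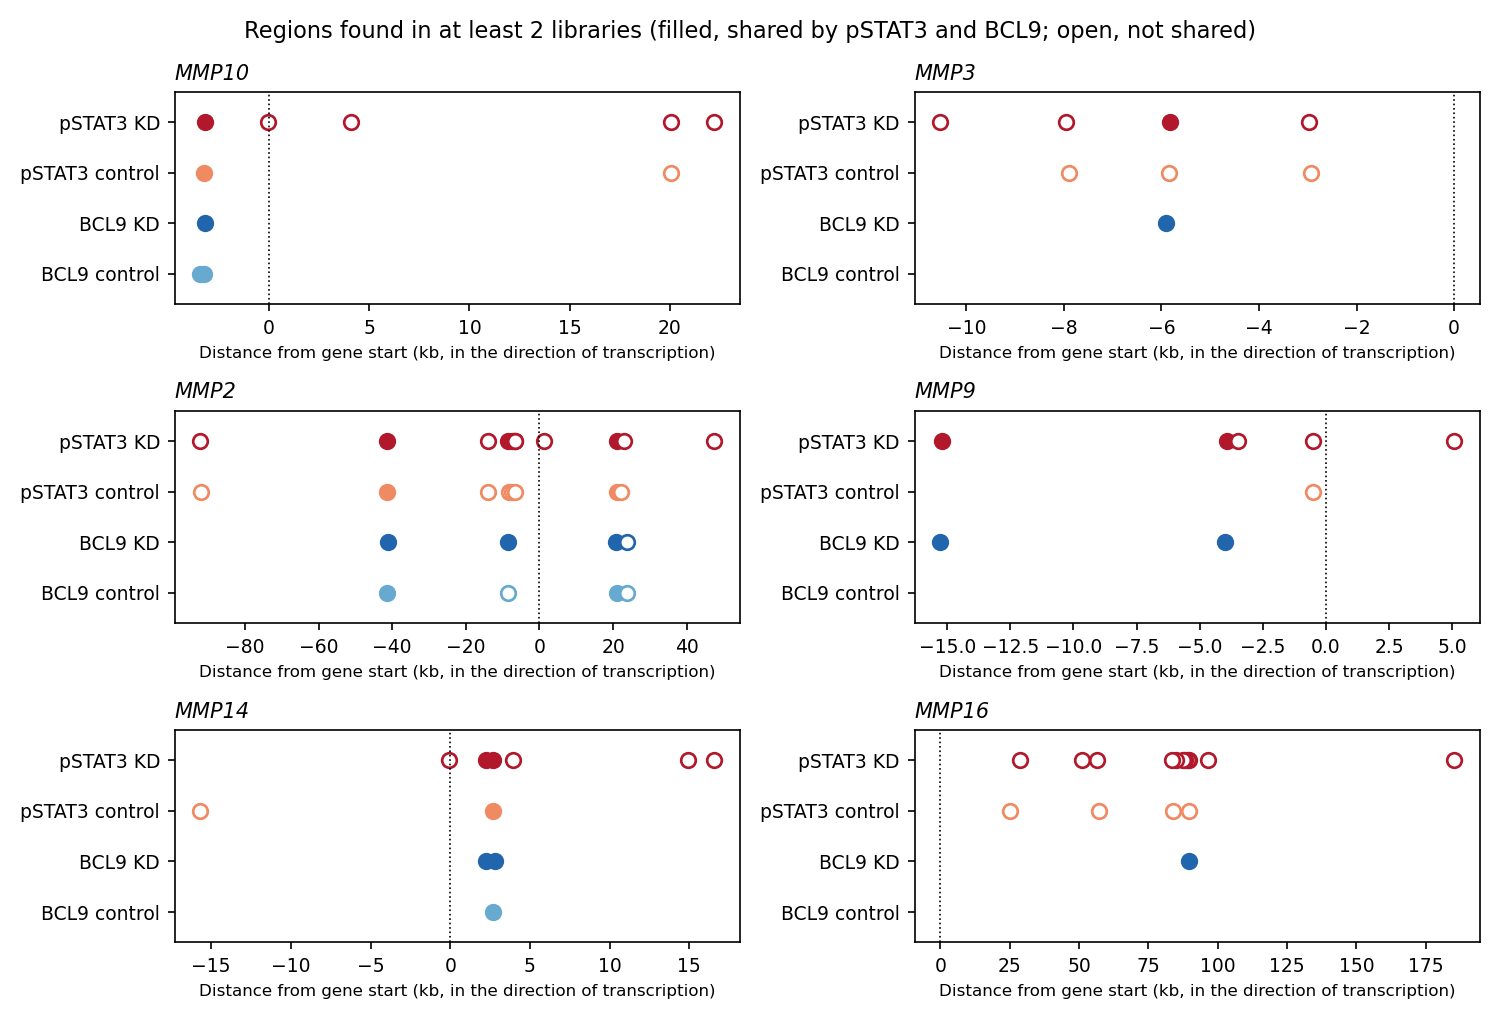
Regions nearest to each of 6 members by distance from the gene start (kb, positive in the direction of transcription), in rows for pSTAT3 and BCL9 in knockdown (KD) and control cells, filled where the region overlaps one of the other antibody. MMP2 holds filled regions in all 4 rows round -41287 and 20957 bp, and MMP9 holds filled regions in the knockdown rows only. Regions nearest to MMP1, MMP7 and MMP12 are not drawn.

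No CTCF pair lay in the co-occurring sites, which are a small part of the windows, but some lay in other pSTAT3 regions. The strongest CTCF pairs were at MMP2, with 147 tags at -13906 bp and rank 1406.5 of 457119, and at MMP14, with 127 tags at 16620 bp. The MMP2 pair lay in a weak pSTAT3 region of both conditions, with 5 and 6 pSTAT3 tags in knockdown cells, against 4, 0 and 7 in control cells. The MMP14 pair lay in a pSTAT3 region of knockdown cells, with 8 and 7 tags, and no pSTAT3 pair was listed there in control cells. At the MMP10 start CTCF had a pair of 37 tags within 250 bases upstream, where the promoter shows the CTCF core. The same stretch held pSTAT3 pairs of 8 and 17 tags in knockdown cells, against 0, 0 and 14 in control cells. The MMP1 start at -86 bp was similar in pSTAT3, with 14 and 18 tags in knockdown cells, against 0, 0 and 18 in control cells, and had no CTCF pair. BCL9 was listed at these 2 starts in knockdown replicate 2 alone, with 6 tags at each.

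The AP-1 string was frequent under pSTAT3 pairs at the family, at a share close to that of pSTAT3 pairs elsewhere. It lay in 16.3% and 14.5% of the 100 bp windows of the members in knockdown cells, against 12.2% and 11.5% of all windows of those lists. In control cells it lay in 23.1%, 19.1% and 13.5%, against 19.4%, 13.7% and 10.8% of all windows. Of whole pSTAT3 regions, 18 of 46 at the members had the string in knockdown cells (39.1%) and 9 of 20 in control cells (45%), against 35.3% and 38.2% of all pSTAT3 regions. Of the co-occurring pSTAT3 regions of the members it was 5 of 10 in knockdown cells, against 40.7% over the genome. In control cells it was 2 of 4, against 37.8%. Under CTCF pairs at the members the string was in 1 of 193 windows. The STAT3 string lay in 2.75% ± 1.97 (SD, n = 2) of the pSTAT3 windows of the members in knockdown cells and 2.30% ± 0.711 (SD, n = 3) in control cells, against 3.46% of all pSTAT3 windows in each condition. These shares are descriptions over the listed pairs, many of which overlap.

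Over the family as a whole, the density of either antibody in knockdown cells lay close to or inside its range in control cells. For pSTAT3 the density over the 840.6 kb was 1.92 and 1.77 in knockdown cells (mean 1.84 ± 0.11, SD, n = 2), against 1.97, 1.72 and 1.72 in control cells (1.80 ± 0.147, SD, n = 3), a log2 difference of 0.03 (exact permutation over 10 assignments, two-sided p = 0.8). For BCL9 it was 1.28 and 1.71 in knockdown cells (1.496 ± 0.298), against 1.38, 2.05 and 1.70 in control cells (1.71 ± 0.33), a log2 difference of -0.19 (exact permutation, two-sided p = 0.5). The smallest p this design allows is 0.1, so neither comparison could reach 0.05. For comparison, the single CTCF library stood at 1.53. Leaving out knockdown BCL9 replicate 1 turned the BCL9 difference to 0.02, and without MMP16 the pSTAT3 difference was -0.11.

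No single member passed the test across all genes in either antibody. That test was limma on log2 peak pairs of a gene scaled to list length, over 17083 genes, with Benjamini-Hochberg adjustment at 0.05. It called 0% of genes for pSTAT3 and 0% for BCL9, with 232 and 1404 genes at an unadjusted p under 0.05. On counts simulated with an assumed spread, the same fit recovered 73 of 200 planted 4-fold pSTAT3 changes (36.5%). Under that spread it missed most changes of that size, and the spread was not estimated from these libraries. The pSTAT3 differences of the members ran between -0.46 for MMP3 and 0.54 for MMP16, each smaller than its SE (0.672 and 0.630). The widest BCL9 differences were at MMP9, MMP16 and MMP2. BCL9 density at MMP9 was 2.67 and 3.03 in knockdown cells, on 4 and 16 listed pairs. In control cells it was 0, 0 and 0.857, on 0, 0 and 2 pairs, a log2 difference of 1.41 (SE 0.646, limma adjusted p = 0.598). At MMP16 it was 0.473 and 0.994 in knockdown cells, against 0, 0 and 0.729 in control cells, a log2 difference of 1.37 (SE 0.63, limma adjusted p = 0.598). At MMP2 it ran the other way, 2.83 and 2.30 in knockdown cells, against 4.72, 9.39 and 4.16 in control cells, a log2 difference of -1.18 (SE 0.428, limma adjusted p = 0.573). These sizes depended on the settings. With a prior of 2 pairs the difference was 0.12 at MMP9, 0.19 at MMP16 and -1.25 at MMP2. After scaling by the median gene it was 0.76, 0.72 and -1.83. At equal list length it was -0.32 at MMP2. The median of all genes in this comparison was -0.04 as fitted, -0.71 with a prior of 2 pairs and -0.68 after scaling by the median gene. Among the strongest 24728 pairs of each list, MMP2 had 7 and 8 BCL9 pairs in knockdown cells, against 7, 12 and 10 in control cells. The difference between the pSTAT3 and the BCL9 change passed for 0% of genes, with 497 at an unadjusted p under 0.05.

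**Figure D3:**
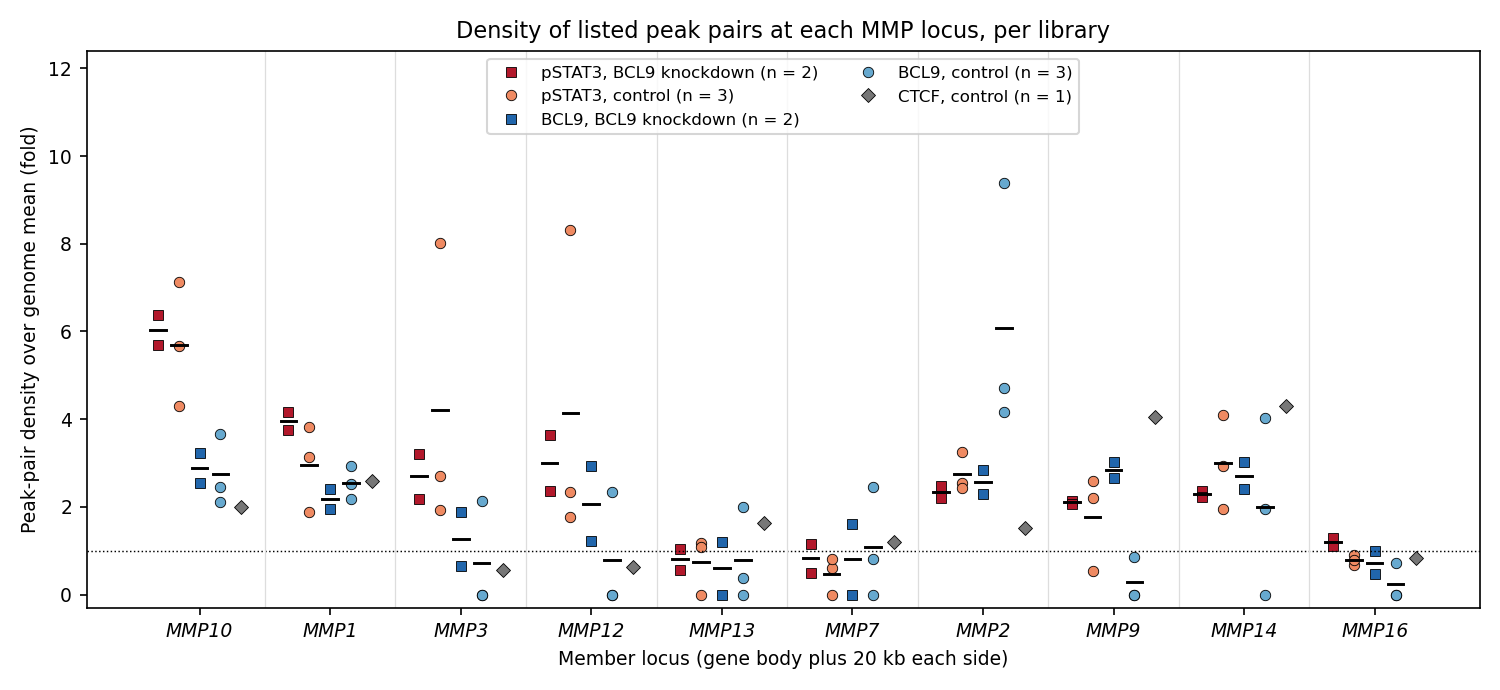
Density of listed peak pairs over the genome mean (fold, dotted line at 1) at each of the 10 loci, with 1 point per library and a bar for the group mean. At MMP2 the 3 control BCL9 points (4.16 to 9.39) lie above the 2 knockdown points, at MMP9 the 3 (0 to 0.857) lie below them, and at MMP10 all 5 pSTAT3 points (4.30 to 7.13) lie above all 5 BCL9 points. The share of all genes with groups separated in this way was not counted.

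Set against BCL9, pSTAT3 was the denser over the pooled chromosome 11 members, though not at each of them. Over all 10 members the density was 1.82 ± 0.119 in the 5 pSTAT3 libraries and 1.62 ± 0.301 in the 5 BCL9 libraries, a log2 difference of 0.18 (exact permutation over libraries, two-sided p = 0.2222). Over the 6 members on chromosome 11 alone, an alternative setting, the log2 difference was 0.98 (exact permutation, two-sided p = 0.01587), with pSTAT3 the higher. That p was not adjusted for the settings tried. Without MMP16 the difference was 0.015 (exact permutation, two-sided p = 0.881). In control cells MMP10, MMP3 and MMP12 had pSTAT3 above BCL9 in the per-gene fit, and MMP7, MMP13 and MMP1 had it below (-1.41, -0.77 and -0.13 on the log2 scale). With gene bodies extended by 5 kb in place of 20 kb it was -0.14 for the 10 members. Without control BCL9 replicate 2 it was 0.27 (exact permutation, two-sided p = 0.007937), and over all settings p ran between 0.007937 and 0.881. At MMP10 the BCL9 density was 2.53 and 3.24 in knockdown cells and 2.11, 2.45 and 3.66 in control cells, each below the lowest of the pSTAT3 densities. The share of all genes separated in this way was not counted.

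Per gene, limma called 1.09% of the 17083 genes between pSTAT3 and BCL9 in control cells (187, of which 28 with pSTAT3 higher, while 2 of 181 were higher after scaling by the median gene and 7 of 1250 with a prior of 2 pairs) and 0% in knockdown cells, where 535 had an unadjusted p under 0.05. No member passed in either condition as fitted. In control cells pSTAT3 was above BCL9 at MMP16, by 1.56 on the log2 scale (SE 0.563, limma adjusted p = 0.176), at MMP3 by 1.32 (SE 0.601, limma adjusted p = 0.3) and at MMP12 by 1.27 (SE 0.616, limma adjusted p = 0.338). It was below BCL9 at MMP7 (SE 0.797, limma adjusted p = 0.41), as given above, and at MMP2, by -1.09 (SE 0.383, limma adjusted p = 0.164). The MMP2 value passed the threshold with a prior of 2 pairs (-1.15, limma adjusted p = 0.0337), and the MMP2 and MMP16 values passed without control BCL9 replicate 3 (-1.335 and 2.28, limma adjusted p = 0.04595 and 0.0116). The median of all genes was -0.18 in this comparison, -0.69 after scaling by the median gene and -0.79 with a prior of 2 pairs, and MMP2, MMP3, MMP12 and MMP16 kept their direction under each. Their size did not hold: with a prior of 2 pairs the difference was 0.33 at MMP16, 0.13 at MMP3 and 0.09 at MMP12, and at equal list length it was -0.20 at MMP2.

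**Figure D4:**
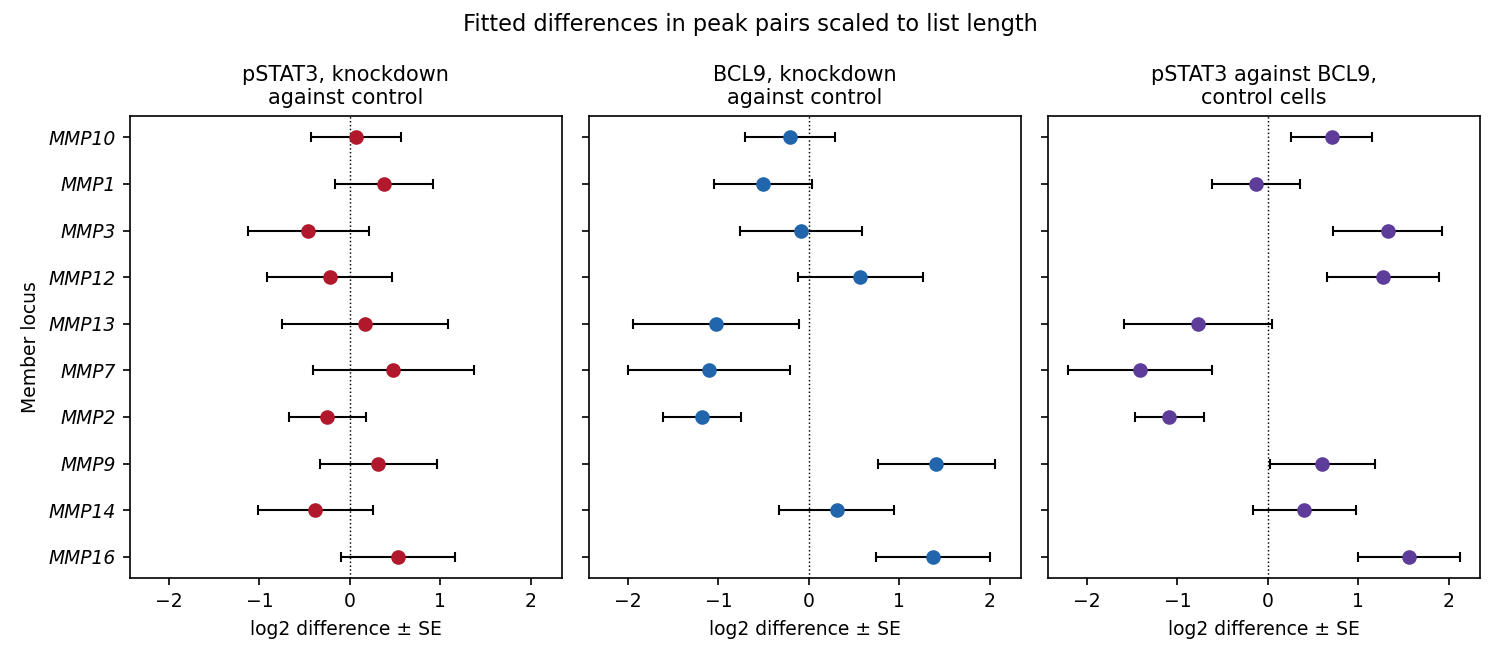
Fitted log2 differences in peak pairs scaled to list length, with SE, for the 10 members in 3 comparisons. The pSTAT3 change after knockdown lies within 0.54 of 0 at every member, the BCL9 change runs between -1.18 at MMP2 and 1.41 at MMP9, and no value passes the adjusted threshold.

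The rest of the protease system can be set beside the 10 members. Of the 13 other MMP genes searched, 3 had a co-occurring region in knockdown cells and 2 in control cells, MMP20 and MMP28. Of 9 inhibitors, activators and partners of these enzymes, 7 had one in knockdown cells and 5 in control cells, where all genes stood at 30.0% and 19.4%. The 13 other MMP genes were near or below those shares. The 5 were TIMP3, a tissue inhibitor of metalloproteinases bound to the matrix, RECK, a membrane-anchored inhibitor, FURIN, which activates membrane-type MMPs, ITGAV, the integrin alpha-V chain, and CD44, a hyaluronan receptor that docks MMP9. Of these genes TIMP3 alone passed the per-gene test between the antibodies in control cells, with pSTAT3 below BCL9 by -1.84 on the log2 scale (SE 0.437, limma adjusted p = 0.0462). It no longer passed in 11 of the 16 other settings tried.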

How the data were processed

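ChIP-exo peak-pair lists of 11 libraries were analysed, and no list was used for IgG. The authors deposited a list per library on hg19, whose program tag names a peak-pairing tool. The value deposited for each pair has the unit signal, in whole multiples of a step of that library, and signal divided by the step gives tags. Among tools, the submitters' notes give bcl2fastq. The alignment program was not given in the sources used here. How the step was set is not stated. The paper describes a different caller, run also on merged replicates, and such merged lists were not used here.

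Peak pairs were ranked within each list and assigned to GENCODE v44 gene bodies on GRCh37 extended by 20 kb. Windows of 100 bp round midpoints were merged where they overlapped, and regions needed 2 of 3 control or 2 of 2 knockdown libraries. Equal list length means the strongest 24728 pairs. Peak pairs per gene, scaled to list length and on the log2 scale, were fitted with limma 3.58.1 (R 4.3.3) with an added 0.5 pairs and a minimum mean of 2 pairs, over the 10 pSTAT3 and BCL9 libraries in one fit. A test on simulated data planted 4-fold pSTAT3 changes in 200 genes with a mean of at least 10 pairs. Its counts had a spread set in advance and a single mean rate per gene over all libraries of both antibodies. The fit recovered 36.5% of them, with 0 false calls. Whole-family densities were compared by exact permutation of libraries. Python 3.11.15, numpy 2.4.6, pandas 2.3.3, pysam 0.24.0 and matplotlib 3.10.9 were used. Strings were searched on both strands, and promoters came from RefSeq, where 3 of 10 members matched.

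Replicates are biological by the labels. The members, lists and strings were chosen with earlier results of these data known. Named were all members, list genes with a co-occurring control region or past the test, the best-ranked co-occurring region and the region nearest the start of each member, and sites said in the text to have been added. PECAM1 had no match in the annotation. The alternatives were equal list length, a median signal minimum, 5 kb reach, subsets of members, other priors, filters and scalings, and libraries left out.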

Additional observations from a re-analysis of the deposited data

How the results depend on the processing

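At equal list length the co-occurring regions at the family numbered 2 in knockdown cells and 3 in control cells, and the members with one 3 in each. Requiring at least 1 library gave 44 and 24 regions, with 10 members in each condition. In all 3 control libraries there were 2 regions, at 1 member. With 5 kb reach 5 members had a region in knockdown cells. Leaving out single control libraries gave 2 to 4 control regions at 1 to 4 members.

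The family-wide pSTAT3 change was -0.113 without MMP16, -0.001 with the replicate block and between -0.029 and 0.099 without single libraries. The BCL9 change was 0.049 at equal list length, 0.136 over the chromosome 11 members, and between -0.394 and 0.016 without single libraries. Between the antibodies the difference was -0.136 with 5 kb reach, 0.979 over chromosome 11 members and 0.102 to 0.269 without single libraries.

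Genes called between the antibodies in control cells, 187 as fitted, numbered 752 at equal list length, 1250 with a prior of 2, 314 with the replicate block, 19 without both control replicates 1, and 32 to 1052 without single libraries. In knockdown cells they numbered 555 at equal list length and 24 with a prior of 2. Genes called for BCL9 after knockdown numbered 41 with the replicate block and 0 to 156 without single libraries. Deviations of libraries with the same replicate number correlated by -0.0173 to 0.0332 across genes, so the numbers were not taken to pair libraries. Read depth is unknown, so weak sites cannot be told from unlisted ones.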
